A study of Mus musculus and Homo sapiens with 40 samples.

Results

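The ATF4 sites at gene promoters were the members of the ATF4 peak list of KO-52 cells whose summit lay within 1 kb of the start of a protein-coding transcript. Of 16252 sites on chromosomes 1 to 22 and X, 800 met this rule (4.92%, 95% interval 4.60 to 5.27). They lay at the starts of 851 genes out of 19550, so that 4.35% of protein-coding genes had a promoter site. The sequence within 1 kb of these starts made up 2.07% of the known bases of the chromosomes used.

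The list came from chromatin immunoprecipitation and sequencing of 1 sample of KO-52, a human acute myeloid leukemia cell line. According to the study, this line carries biallelic CEBPA mutations. The cells were given tunicamycin at 2 µg/mL for 4 h, and chromatin was precipitated with an antibody against ATF4. Peaks had been called against an input library of the same treatment. There was no untreated ATF4 library and no repeat, and the number of reads behind the list is unknown from the list, so no p-value is given and the 95% intervals describe only the counting error of sites or genes. The other samples of the series, mouse HPC-7 progenitor cells expressing the p42 or p30 isoform of CEBPA fused to ERT2, enter below only through 2 anti-CEBPA peak lists of cells without LPS. According to the methods of the study, cells with such fusions were given hydroxytamoxifen beforehand, which moves the fusion protein to the nucleus.

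ATF4 is a bZIP transcription factor whose protein is made mainly when the initiation factor eIF2 is phosphorylated, a state called the integrated stress response. Tunicamycin blocks N-glycosylation, so that misfolded proteins accumulate in the endoplasmic reticulum and the kinase PERK phosphorylates eIF2. ATF4 pairs with members of the C/EBP family on composite sites known as CARE (C/EBP-ATF response element), and is known for genes of amino acid synthesis, amino acid uptake, tRNA charging and stress feedback.

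The letters searched as the CARE were TGATGCAA on either strand, TGATG of the ATF kind followed by letters of the C/EBP kind. The stretches below come from the hg38 reference and run in the direction of transcription of the first gene named. They show the exact CARE nearest to the summit or, where none lay within 100 bp, the bases around the summit or a variant. A site with an exact CARE can also hold a variant that is not shown. They cover the strongest promoter sites, and NFE2L2, SESN2 and the promoter shared by MBD6 and DDIT3, which return among the paired and shared sites. Capitals mark TGATGCAA or 1 of its single-base variants TGATGAAA, TGATGTAA and TGACGCAA, which read TTGCATCA, TTTCATCA, TTACATCA and TTGCGTCA from the other strand. The first set gives 60 bases around the CARE, or around the summit where no exact CARE lay within 100 bp, for sites that overlap exons by no more than 30 bases.
SIAH1, chr16:48366611-48366670, minus strand: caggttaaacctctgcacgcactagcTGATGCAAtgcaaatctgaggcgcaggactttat
MTHFD2, chr2:74199180-74199239, plus strand: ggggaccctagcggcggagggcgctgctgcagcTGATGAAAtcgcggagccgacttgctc
HSPA9, chr5:138575697-138575756, minus strand: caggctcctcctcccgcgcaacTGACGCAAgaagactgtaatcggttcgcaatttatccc
KDM6B, chr17:7838922-7838981, plus strand: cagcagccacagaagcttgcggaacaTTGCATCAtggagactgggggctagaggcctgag
PSPH, chr7:56033708-56033767, minus strand: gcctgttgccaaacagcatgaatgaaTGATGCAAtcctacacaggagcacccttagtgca
NFE2L2, chr2:177264818-177264877, minus strand: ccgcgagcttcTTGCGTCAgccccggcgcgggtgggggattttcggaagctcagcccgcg
SESN2, chr1:28259289-28259348, plus strand: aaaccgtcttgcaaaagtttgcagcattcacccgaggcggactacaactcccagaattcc
MBD6 and DDIT3, chr12:57520787-57520846, plus strand: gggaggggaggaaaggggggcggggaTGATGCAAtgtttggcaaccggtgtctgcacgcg
The second set gives 28 bases around the matched letters for those of the 15 strongest sites whose 60 bases overlap an exon of any annotated transcript, noncoding ones included, by over 30 bases, and was added after the data were seen.
TRIB3, chr20:380915-380942, plus strand: tagctccggtTTGCATCAcccggaccgg
CHAC1, chr15:40953252-40953279, plus strand: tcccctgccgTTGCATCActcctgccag
YARS1, chr1:32817338-32817365, minus strand: cgagcccagcTGATGCAAcctggctgga
SHMT2, chr12:57230182-57230209, plus strand: gcttcactgcTTGCATCAggcaggggtc
BUD31, chr7:99408878-99408905, plus strand: acacctaagaTGACGCAAtctccgcgcg
SLC3A2, chr11:62881726-62881753, plus strand: gcaggactccTTACATCAgctcctctga
MARS1, chr12:57488054-57488081, plus strand: ccggttccggTTGCATCAgcgagggatt
DDIT4, chr10:72272968-72272995, plus strand: tcctcggtccTGATGCAAccgtctggat
RSL24D1, chr15:55196931-55196958, minus strand: ggtgacggggTTGCATCActtcctctca

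The 15 strongest promoter sites carried the exact CARE at 10 genes and only a variant at 5. BUD31 and HSPA9 had TGACGCAA, MTHFD2 had TGATGAAA and SLC3A2 had TGATGTAA. At SESN2 no such letters lay in the 60 bases shown, and a TGATGAAA lay elsewhere within 100 bp of the summit.

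Strength was taken as the fold over input at the summit that the peak caller had written, ranked from 1 for the highest of the 16252 sites. The strongest promoter site, rank 5, had a fold of 95.1 and lay 179 bp downstream of a start of TRIB3, a pseudokinase that holds back ATF4 activity. The next, rank 7 with a fold of 87.7, lay 244 bp downstream of a start of CHAC1, which degrades glutathione. The third, rank 11, had a fold of 82.2 and lay 7 bp downstream of the start of YARS1, the tyrosyl-tRNA synthetase, and by −log10 p (452) it was rank 1 of the whole list. These 3 promoters were the only ones among the 25 strongest sites (12%, 95% interval 4.17 to 30.0).

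Others of the 15 were SHMT2 (fold 68.7), which makes one-carbon units from serine in mitochondria, SIAH1 (67.0), a ubiquitin ligase, and BUD31 (63.5), a splicing factor. MTHFD2 (61.3) acts beside SHMT2 in mitochondrial one-carbon metabolism, and HSPA9 (57.7) is the mitochondrial HSP70 chaperone. SLC3A2 (56.4), the heavy chain of several amino acid transporters, and MARS1 (56.4), the methionyl-tRNA synthetase, were followed by DDIT4 (55.6), an inhibitor of mTORC1. KDM6B (53.6), a histone demethylase, PSPH (52.9), which completes serine synthesis, and RSL24D1 (52.9), a factor of ribosome assembly, closed the set at ranks 87 to 90. By the annotation of protein-coding transcripts, the summit lay in untranslated exon sequence at 7 of the 15, in an intron at 4, outside them at 3 and in coding sequence at SLC3A2.

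Taken over the list, promoter sites were somewhat stronger than the rest, through an excess at the very top. Their median fold was 8.19 (quartiles 6.05 and 14.6), against 7.80 for the 7372 sites 1 to 50 kb from a start and 7.80 for the 8080 sites farther away. Of the promoter sites, 145 (18.1%, 15.6 to 20.9) were among the strongest 10% of the list, compared with 10.4% of sites 1 to 50 kb away and 8.82% of sites over 50 kb away. The differences were 7.72 points (95% interval 5.11 to 10.6) and 9.30 points (6.71 to 12.2). Promoter sites made up 15.4% of the strongest 500 sites and 8.92% of the strongest 10%, but 3.82 to 5.23% of each later 10% of the list. Their peaks had a median width of 255 bp, compared with 233 and 224 bp for the other classes.

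**Figure D1:**
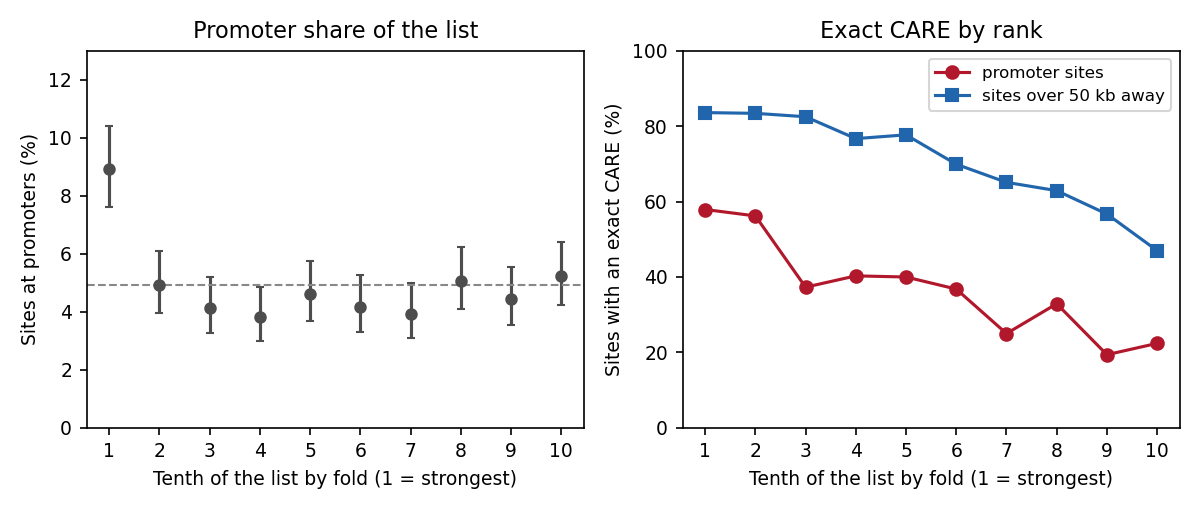
The 16252 sites are split into 10 equal parts by fold, 1 being the strongest. The left panel gives the percent of sites at promoters with 95% Wilson intervals, 8.92% in the strongest part, and a dashed line at 4.92% for the whole list. The right panel gives the percent of sites with an exact CARE within 100 bp of the summit, which went from 57.9% to 22.4% at promoters and from 83.6% to 47.0% at sites over 50 kb from a start.

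Summits were densest just upstream of the start. Distances run in the direction of transcription, with negative values upstream. In steps of 100 bp, 141 sites lay in the last 100 bp before it and 97 in the first 100 bp after it, compared with 17 to 66 in each other step. In all, 29.8% (26.7 to 33.0) lay within 100 bp and 66.5% within 500 bp, the median distance was 281 bp, and 55.9% (52.4 to 59.3) lay upstream. Each distance was to the nearest of 70491 starts, many of them close together, which favours short distances. The share of bases in each step was not counted, and its part in these values was not tested. With only canonical transcripts, 22.0% lay within 100 bp. Among the 145 strong promoter sites, 26.9% (20.3 to 34.6) lay within 50 bp of the start, against 18.2% (15.7 to 21.1) of all 800, which include them. By the same annotation, 350 summits lay in introns, 253 outside these transcripts, 165 in untranslated exon sequence and 32 in coding exons.

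Many of these starts were not those of the gene's canonical transcript. For 258 sites (32.2%) no canonical start lay within 1 kb, and 116 lay over 10 kb from any canonical start. SIAH1, KDM6B and PSPH belonged to this class, at 18765, 4735 and 17700 bp downstream of the nearest canonical start. These 258 sites carried an exact CARE more often than the 542 at canonical starts, 50.0% (43.9 to 56.1) against 33.4% (29.6 to 37.5), and their median GC content was 44.5% against 55.0%. Genes with a promoter site had a median of 4 annotated starts against 3 for other genes, and a site was found at 2.04% of genes with 1 start and at 9.46% of genes with 7 or more. Nearest to the limit on the inside were CYB561, at −1000 bp (fold 9.82), and TET3, at 998 bp (10.5), a distance shared by SARS1 (fold 44.8), a seryl-tRNA synthetase gene, and PPARD (14.3). Just outside were a site of CREM, at 1001 bp (9.82), and 1 of TMEM14B, at 1004 bp (4.06). CREM also had a promoter site, at −60 bp from another of its starts (fold 11.3).

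**Figure D2:**
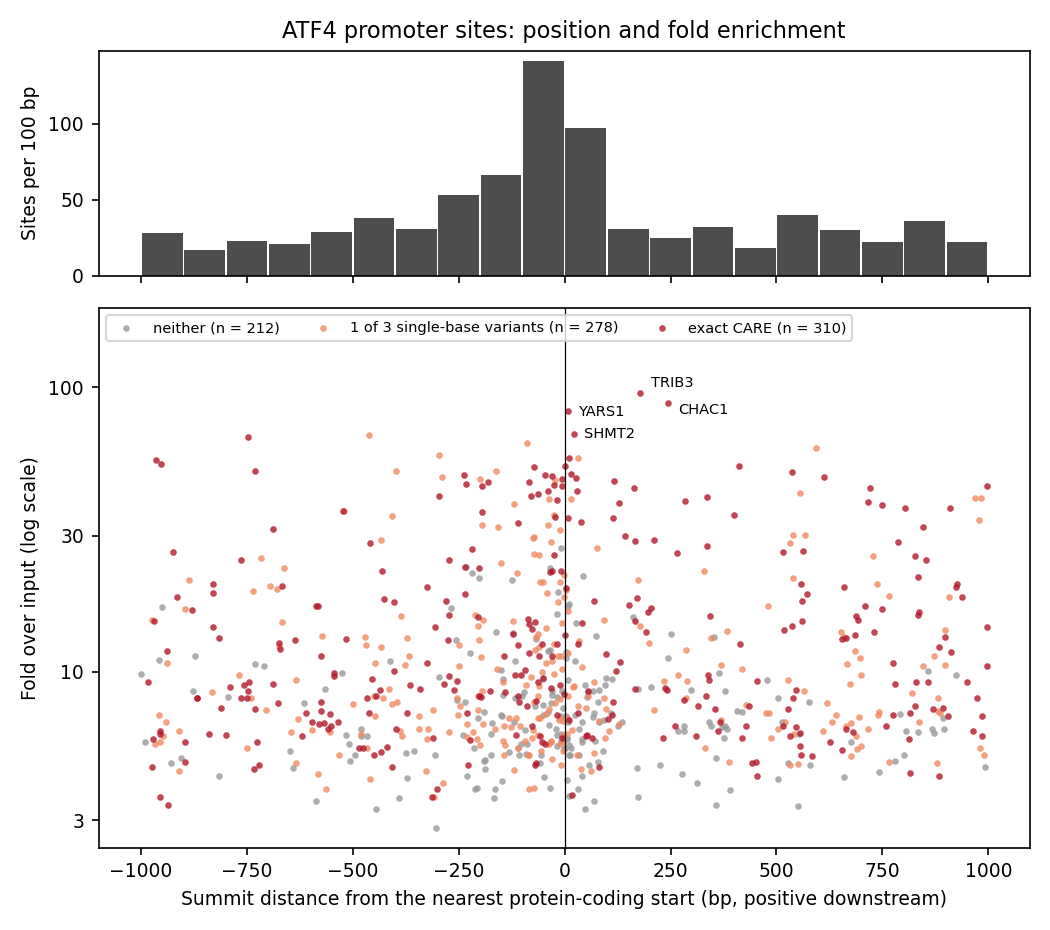
Each of the 800 promoter sites is placed by the distance of its summit from the nearest protein-coding start (bp, positive downstream) and by its fold over input on a log axis. The upper panel counts sites per 100 bp, with 141 in the last 100 bp before the start. Colour shows an exact CARE within 100 bp of the summit (310 sites), only 1 of the 3 variants (278) or neither (212), and the 4 strongest sites are named.

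An exact CARE lay within 100 bp of the summit at 310 promoter sites (38.8%, 35.4 to 42.2). The same letters lay in 0.500% of windows 5 kb to either side of these sites and in 0.372% of windows centred on all 19625 canonical starts. Promoter sites nevertheless held it less often than other sites of the list, of which 62.3% (1 to 50 kb away) and 70.6% (over 50 kb away) did. The differences were −23.6 points (−27.1 to −20.0) and −31.9 points (−35.3 to −28.3). Closer to the start the share was lower still, with 26.9% of the 238 sites within 100 bp of it and 43.8% of the others (difference −16.9 points, −23.5 to −9.67). It moved with strength, from 58.5% in the strongest 200 promoter sites to 26.0% in the weakest 200.

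Base composition moved with these shares. Promoter sites had a median GC content of 51.5%, compared with 40.5% and 38.0% for the other classes and 66.5% at all canonical starts. When all sites of the list were split into 3 equal classes of GC content, 54.2%, 53.3% and 33.6% of promoter sites held the CARE from the lowest to the highest class, against 75.7%, 67.5% and 66.6% of sites over 50 kb away. The promoter sites numbered 72, 135 and 593 in these classes. The lower share at promoters was thus seen in each GC class, and the part of GC content within a class was not tested.

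Of the 24 single-base variants of the CARE, 3 stood out among the 490 promoter sites without the exact letters, and the other 21 were each found at 3.27% of them or fewer. TGATGAAA (C6A, counted from 1 at the first T) lay at 21.6%, TGATGTAA (C6T) at 18.0% and TGACGCAA (T4C) at 18.0%. The first pair was less frequent than at the 5151 other sites of the list without a CARE, where the shares were 33.6% and 30.0%. TGACGCAA, which holds a CpG, was more frequent at promoters, 18.0% (14.8 to 21.6) against 3.81% (3.32 to 4.36), a difference of 14.2 points (11.0 to 17.8). Among sites without an exact CARE in the strongest 10% of the list, it lay at 18 of 61 promoter sites (29.5%, 19.6 to 41.9) and at 24 of 273 others (8.79%, 5.98 to 12.7). It was found in 0 of 980 windows 5 kb away and in 0.489% of windows at all canonical starts.

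With the exact CARE and these 3 variants counted together, the shares at strong promoter sites and at strong sites over 50 kb away were close. Of the 145 promoter sites in the strongest 10% of the list, 57.9% held the exact CARE and 94.5% (89.5 to 97.2) at least 1 of the 4 sequences. Of the 713 sites over 50 kb away in the same part of the list, 83.6% held the exact CARE and 95.2% (93.4 to 96.6) at least 1 of the 4. The difference was −25.7 points (−34.2 to −17.4) for the exact CARE and −0.749 points (−5.92 to 2.50) for the 4 sequences. Over the whole list a gap remained, 73.5% at promoters against 90.2% over 50 kb away, and 1.44% of all canonical start windows held 1 of the 4. The 3 variants were chosen from these promoter sites after the data were seen, so the small difference for the 4 sequences is not independent of that choice.

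**Figure D3:**
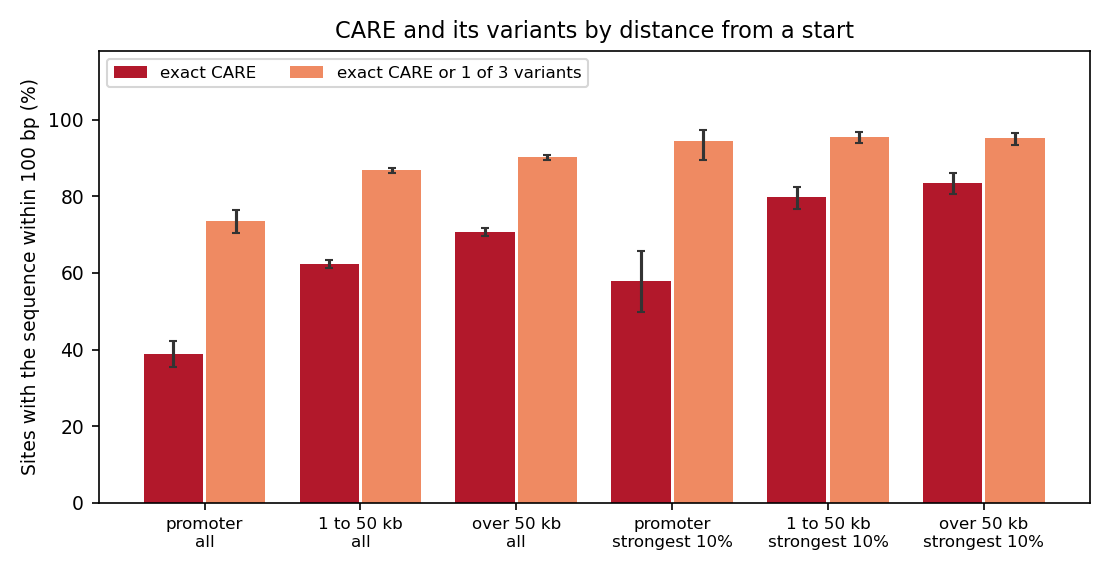
Bars give the percent of sites with an exact CARE, or with an exact CARE or 1 of its 3 variants, within 100 bp of the summit, and error bars are 95% Wilson intervals. The 3 distance classes are shown for all sites (800, 7372 and 8080) and for those in the strongest 10% of the list (145, 767 and 713), where the second kind of bar reached 94.5%, 95.6% and 95.2%.

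Where a promoter site held the exact CARE, the centre of its letters was a median of 13 bp from the summit, and 74.5% lay within 25 bp. The CARE read on the gene's own strand in 147 of 310 cases (47.4%, 41.9 to 53.0). Sites with more than 1 copy were few but strong. The median fold was 7.25 for 490 promoter sites without an exact CARE, 9.80 for 300 with 1 copy and 37.6 (quartiles 26.0 and 44.6) for 10 with more, 8 of which were in the strongest 10% of the list. TRIB3 had 3 copies on the same strand at a spacing of 33 bp, and SHMT2 had 2 on opposite strands 22 bp apart. At sites over 50 kb away the medians were 6.63, 8.58 and 12.4.

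Seen from the sequence, a CARE near a start was more often under an ATF4 summit. Of the 109294 copies of TGATGCAA on the chromosomes used, 9.88% had a summit within 100 bp. The share was 37.7% (29.4 to 46.9) for the 114 copies within 50 bp of a protein-coding start, 18.8% at 501 to 1000 bp and 8.58% over 50 kb away. Within 1 kb of a start it was 23.5%, against 9.71% elsewhere, a difference of 13.8 points (11.6 to 16.1).

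The bases beside the 8 letters moved with occupancy at promoters as elsewhere. Within 1 kb of a start, the share with a summit was 3.46% where A followed the CARE, 15.8% with G, 40.7% with T and 43.9% with C. Before the CARE, it was 2.07% with T, 15.9% with G, 28.3% with C and 37.9% with A. Copies with A, C or G before and C or T after were occupied in 48.7% (44.4 to 52.9) of 526 cases within 1 kb of a start. Elsewhere 29.6% (29.1 to 30.1) of 32373 such copies were, a difference of 19.1 points (14.8 to 23.4). This class of flanks was not planned and was set with the shares above known. Occupancy also moved with GC content near starts, from 18.4% in windows under 40% GC to 48.8% in windows of 60% or more, while over 1 kb from a start it was 10.5% and 11.7%.

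**Figure D4:**
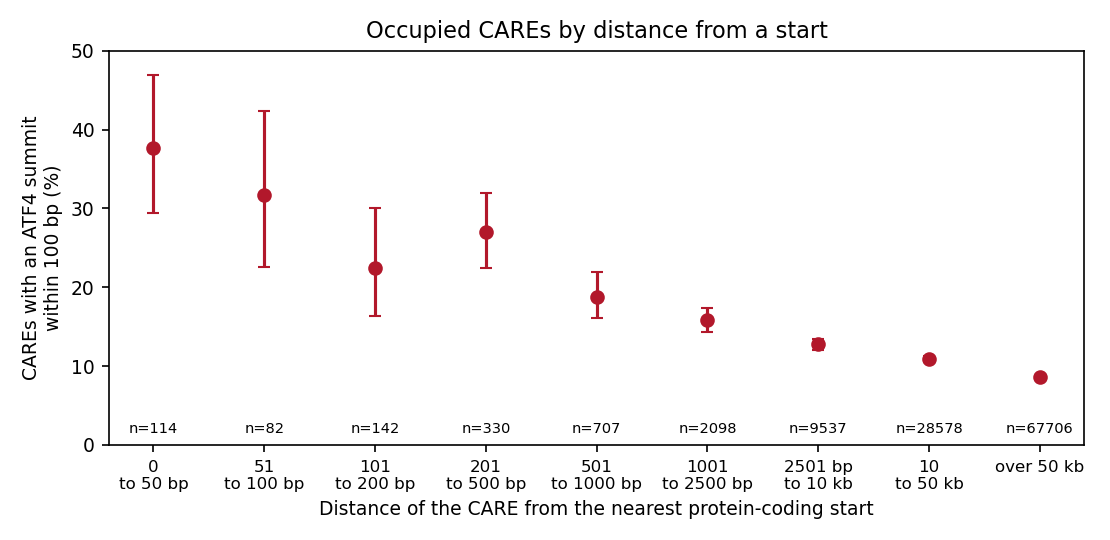
Points give the percent of genomic TGATGCAA copies with an ATF4 summit within 100 bp, by the distance of the copy from the nearest protein-coding start, with 95% Wilson intervals and the number of copies in each class. The share was 37.7% within 50 bp of a start and 8.58% beyond 50 kb.

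GGGCGG, the GC box bound by SP1, lay in 23.9% of promoter site windows, 2.47% and 1.21% of windows in the other distance classes and 53.9% of windows at all canonical starts. CCGGAA, the core bound by ETS factors, lay in 11.4% of promoter site windows, 1.98% and 1.19% in the other distance classes and 17.8% at all canonical starts. TATAAA, the TATA box, lay in 7.88% of promoter site windows, 16.2% and 20.7% in the other distance classes and 6.63% at all canonical starts. CCAAT, the box bound by NF-Y, lay in 24.9%, against 25.6% and 29% in the other classes and 25.2% at all canonical starts. TGACGTCA, the full CRE bound by CREB and ATF1, was rare, in 8 of 800 promoter sites (1.00%, 0.508 to 1.96). It lay in 0.136% and 0.0619% of windows in the other distance classes and in 2.04% at all canonical starts.

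Genes known as effectors of the integrated stress response were the group with most promoter sites, 18 of 28 (64.3%), beside 4.35% of all protein-coding genes. In 13 of the 28, the site was among the strongest 10% of the list, which held for 0.829% of all genes. These and the other lists were drawn up with results of these data known and are given as counts. TRIB3, CHAC1 and DDIT4 led, and the DDIT4 site lay at −964 bp from its start. Transcription factors that act with ATF4 followed, with CEBPG (fold 49.0), a C/EBP partner of ATF4, DDIT3 (46.8), the proapoptotic factor CHOP, JDP2 (45.3), a repressor of AP-1, and ATF3 (22.4), a stress-induced repressor. SESN2 (47.6) and EIF4EBP1 (40.7) restrain mTORC1 and cap-dependent translation. PPP1R15B (27.1) encodes a subunit of the phosphatase that resets eIF2.

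The remaining genes of this group include PMAIP1 (fold 37.7), the BH3 protein NOXA, VEGFA (21.8), the angiogenic growth factor, and NIBAN1 (20.3), a stress-induced protein. All of these were also in the strongest 10% of the list. VLDLR (11.5), a lipoprotein receptor, the hormone GDF15 (11.1), the death receptor gene TNFRSF10B (10.9), the hormone FGF21 (7.90) and the glycoprotein hormone STC2 (3.90, rank 15889) were below it. The 10 genes of the list without a promoter site included ATF4 itself, whose nearest site was at −72472 bp. For PPP1R15A, CEBPB, ATF5 and CDKN1A, named here after their values were seen, the nearest sites were at 2267, 1594, −4257 and −3092 bp. Their folds were 25.6, 36.3, 15.2 and 4.12. These were the 4 of the 10 genes with a site within 10 kb. For BBC3, BCL2L11, ERN1, TRIB1 and NUPR1 the nearest sites were at −11540, −18619, 19330, 54064 and 222736 bp.

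Amino acid metabolism and uptake came next. Of 26 enzymes of amino acid synthesis and one-carbon metabolism, 13 had a promoter site and 11 a strong one, led by SHMT2, MTHFD2, PSPH and BCAT1 (fold 52.2), which transaminates branched-chain amino acids. Of 15 amino acid transporters, 9 had a site and 7 a strong one, led by SLC3A2, SLC7A1 (50.4) for cationic amino acids, SLC7A11 (46.3) for cystine and SLC38A2 (44.2) for neutral amino acids. ASNS, the asparagine synthetase gene and a well-known ATF4 target, was named after its values were seen. Its site lay 14 bp downstream of a start with a fold of 40.3 and rank 243, and held TGATGAAA and no exact CARE.

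The tRNA synthetases, which load amino acids onto tRNAs, are given by compartment. Of 24 genes for cytosolic synthetases and their scaffold, 11 (45.8%, 27.9 to 64.9) had a promoter site, 10 of them strong and 10 with an exact CARE. One of these, SARS1, lay at the edge of the 1 kb limit. Of 17 mitochondrial synthetases, 0 did (95% Wilson interval up to 18.4%), and 0 still had one with the limit at 2500 bp. At the 4.35% of all protein-coding genes, 17 genes would hold under 1 such gene, so the 0 is not a result about these genes. In 8 of the 11 cytosolic genes the summit lay within 50 bp of a start, where 18.2% of all promoter sites lay. The strongest were YARS1 and MARS1, then IARS1 (fold 49.5) at 15 bp and TARS1 (47.8) at 26 bp downstream of the start, for isoleucine and threonine. The nearest ATF4 site of the mitochondrial genes was a median of 61800 bp from a start.

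The counts for other pathways follow, to be read beside the 4.35% of all protein-coding genes with a promoter site. Of 25 translation factors, 6 had one, led by EIF1 (fold 48.4), which monitors start codon choice, and the eIF2 subunits EIF2S3 (41.5) and EIF2S2 (33.6), while EEF1D, an elongation factor, was at 8.51. Of 28 genes of endoplasmic reticulum folding and degradation, 7 had one. They were led by HERPUD1 (46.3), a degradation factor, and XBP1 (38.4), a transcription factor of the unfolded protein response, then ATF6 (16.9) and P4HB (14.5), and 2 of the 7 were strong. Of 16 genes of mitochondrial stress, HSPA9, its cochaperone gene DNAJA3 (13.6), GDF15 and FGF21 had one. Of 18 redox genes, 4 had one, namely CHAC1, SLC7A11 and the antioxidant factors NFE2L1 (25.8) and NFE2L2 (25.8). The redox list shares the first pair with the lists above.

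Of 34 bZIP factors of the C/EBP, ATF, FOS, JUN and MAF families, a list that leaves out JDP2, XBP1 and NFE2L1 named above, 6 had a promoter site. The sites of CEBPG, DDIT3, NFE2L2 and ATF3 were in the strongest 10% of the list, and those of ATF6 and CREM were below it. Of 25 autophagy genes, ATG7 (fold 11.3) and NBR1 (5.80) had one, and neither was strong. Of 18 cholesterol genes, the regulators SREBF1 (29.1) and SREBF2 (5.17) had one. Of 26 inflammatory genes, CCL4 (8.25), PTGS2 (6.96) and NFKBIA (6.91) had one, none of them strong and none with an exact CARE. Of 15 cytosolic heat-shock genes, 0 had one (95% Wilson interval up to 20.4%). The intervals for the autophagy (2.22 to 25%), cholesterol (3.10 to 32.8%) and heat-shock lists hold the 4.35% of all genes, and that for the inflammatory list starts at 4.00%.

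**Figure D5:**
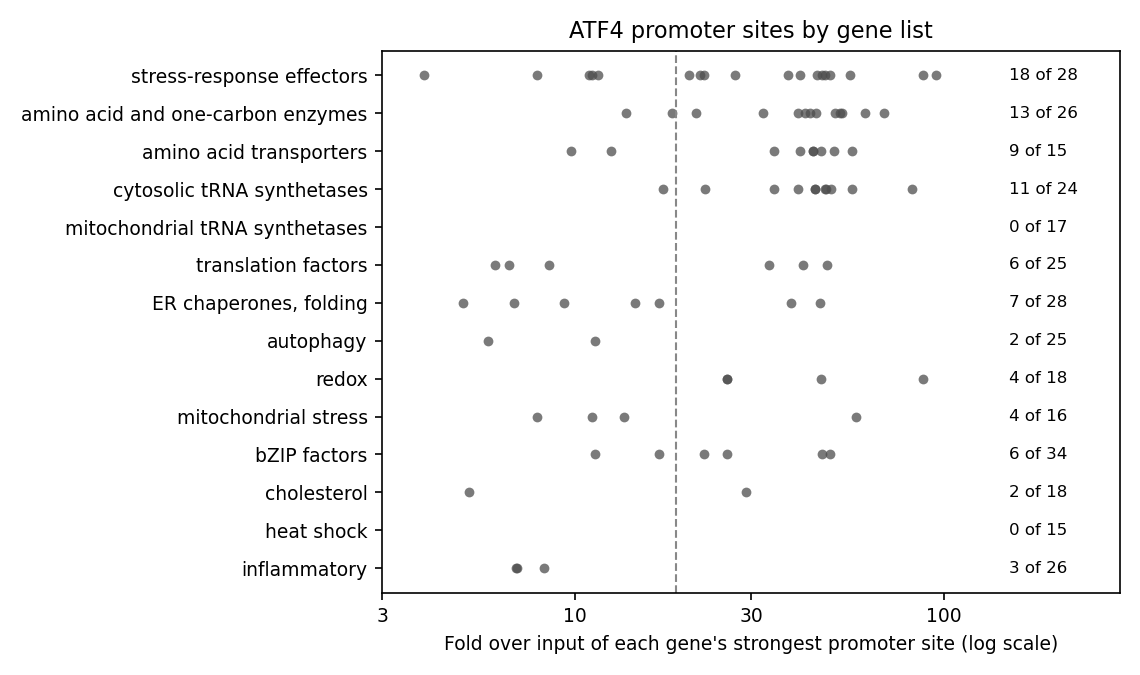
Each point is a gene with an ATF4 promoter site, placed by the fold over input of its strongest such site on a log axis, in 14 gene lists. Numbers at the right give genes with a site out of genes in the annotation, and the dashed line marks a fold of 18.8, the lower edge of the strongest 10% of the list. Synthetases of the cytosol have 11 of 24 and those of mitochondria 0 of 17, beside 4.35% of all protein-coding genes.

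Most genes had a single promoter site. Of the 851 genes, 820 had 1 site, 30 had 2 and 1, NFE2L2, had 3. The NFE2L2 sites had folds of 25.8, 6.87 and 5.08, and the first held TGACGCAA. Pairs ranged from very unequal folds, as at CHAC1, to nearly equal ones, as at USP3 (7.08 and 7.02), which was named after its values were seen. In 21 of these 31 genes the 2 strongest sites were assigned to different annotated starts. Such starts can lie only a few bases apart. At ATPSCKMT, named after its values were seen, the sites lay at 527 and −479 bp with summits 1015 bp apart. TRIB3 had its rank 5 site and a site of fold 22.2 at a start 18323 bp from it between summits, and CHAC1 had a site of fold 5.86 at 1419 bp. In the other 10 genes both sites were assigned to the same start, with summits 375 to 1161 bp apart (median 622). In 4 of these 10 the stronger site was in the strongest 10% of the list, and in 0 were both.

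SESN2 had a site of fold 47.6 at −199 bp and a weaker one of fold 15.0 at 560 bp, and only the weaker held the exact CARE. DDIT3 had folds of 46.8 and 4.40 at summits 1161 bp apart, both with the CARE. Further sites 1 to 50 kb from their starts were found for 57.8% (54.5 to 61.1) of genes with a promoter site and for 46.3% (45.6 to 47.0) of other genes, a difference of 11.5 points (8.07 to 14.8). The number of starts per gene differs between these groups as given above, and its part in this difference was not tested.

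Shared promoters were mostly divergent. Starts of at least 2 genes lay within 1 kb of 79 sites, on opposite strands at 71, and 17 of the 79 were in the strongest 10% of the list. The strongest lay 7 bp downstream of the start of YARS1, and S100PBP, a gene on the other strand, starts 84 bp from it. BUD31 shared its site with PDAP1 at starts 372 bp apart, and MARS1 with ARHGAP9, a GTPase activator, at 658 bp. The DDIT3 site lay at 116 bp from a start of MBD6 and at −309 bp from one of DDIT3, and a gene model without a symbol also began there. WARS1, the tryptophanyl-tRNA synthetase, shared its site (fold 44.8) with WDR25 at starts 821 bp apart. For such sites the list does not say which gene, if either, responds.

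The mouse anti-CEBPA lists were set beside the ATF4 genes by gene symbol, with 16442 symbols found in both species. Of 772 such genes with an ATF4 promoter site in KO-52 cells, 25.5% (22.6 to 28.7) had an anti-CEBPA site within 1 kb of a start in p42-expressing and 26.4% (23.4 to 29.6) in p30-expressing HPC-7 cells. Of the 15670 other genes, 11.0% and 11.1% did, so the differences were 14.5 points (11.6 to 17.8) and 15.4 points (12.3 to 18.6). Genes with an ATF4 promoter site also had more annotated starts, as given above, and the part of this in the differences was not tested. For the 150 genes with a strong ATF4 site the share was 40.7% in both lines. TRIB3, YARS1, SHMT2, MTHFD2, SLC3A2 and MARS1 had a site in both lines, and CHAC1, HSPA9 and DDIT4 in neither. Species, cells, antibody, crosslinking and treatment all differ between these lists and cannot be told apart.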

How the data were processed

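One ATF4 library of KO-52 cells and 2 anti-CEBPA libraries of HPC-7 cells were used. Per the methods of the study, the KO-52 cells for ATF4 were treated with a further crosslinker, DSG. The authors trimmed reads with TrimGalore 0.6.6 and aligned them with Bowtie2 to hg38 or mm39. They left out duplicates marked by Picard and called narrow peaks with MACS2 against input. Each deposited list gives a fold enrichment over input as a ratio, and the −log10 of a p-value and of a q-value per peak, as written by the authors' peak caller. Low input at a summit raises the fold. The study states a range of sequencing depth for all its samples, and the lists do not give the depth of each library. The values were used only to rank or filter sites within their own list.

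Summits (peak start plus offset) on chromosomes 1 to 22 and X were kept, and 218 peaks elsewhere were not used. Starts were those of protein-coding transcripts of GENCODE 44 (human) or M39 (mouse), without transcripts marked as incomplete at their beginning. Canonical starts were those of the Ensembl canonical transcript. Letters were searched on both strands in 200 bp around the summit, in windows 5 kb to either side and around canonical starts. A CARE counted as occupied when a summit lay within 100 bp of its centre. Intervals are Wilson 95% intervals, and those of differences are Newcombe intervals. The steps were tested on simulated data.

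The members, lists and comparisons were chosen with earlier results of these data known. Named genes were the 15 strongest promoter sites (1 of them is not reported here), all stress effectors with a site, up to 4 genes of each other list, the 5 genes with most sites, the 5 strongest shared promoters and the sites next to the 1 kb limit. Sequences were read from the hg38 reference. Tables were handled with pandas 2.3.3 and numpy 2.4.6 under Python 3.11.15, intervals came from scipy 1.17.1 and plots from matplotlib 3.10.9.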

Additional observations from a re-analysis of the deposited data

Results flagged for a closer look

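Outside the chromosomes used, 165 peaks of the ATF4 list (1.00%, median fold 6.58) lay on unplaced or unlocalised contigs of hg38. They are a signal in rows that no comparison above uses, and no gene start of the annotation used lies on these contigs.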

How the results depend on the processing

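Of 88 values under alternatives, 59 kept near the value reported (a count within 1.5 times of it, a share within its 95% interval). The number of promoter sites (800) was 508 with only the 5′ ends of genes, 532 with a limit of 500 bp and 1409 with 2500 bp, and the number of genes (851) was 566 and 1466 with these limits. With only canonical transcripts, 22.0% of the promoter sites lay within 100 bp of the start and 61.8% upstream, 33.4% held the exact CARE, 14 genes had at least 2 sites and 51 sites were shared. With a limit of 2500 bp, 98 genes had at least 2 sites and 153 sites were shared, the mouse shares were 32.6% (p42) and 31.2% (p30), the reverse order of 25.5% and 26.4% as reported, and the mitochondrial stress and bZIP lists had 8 and 11 genes with a site. No other list count moved by over 1.5 times under any alternative run on it, and the share of promoter sites in the strongest 10% of the list was 18.1 to 19.7% throughout.

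The exact CARE was less frequent at promoter sites than at sites over 50 kb away under each alternative run on both. The values were 34.4% against 62.8% in windows of 100 bp and 81.5% against 94.8% with up to 1 mismatch. They were 73.5% against 90.2% with the 3 variants, which were added after the data were seen, and 40.7% against 73.5% with q under 1e-05. From the lowest to the highest GC class they were 54.2%, 53.3% and 33.6% against 75.7%, 67.5% and 66.6%. The cause of these shifts was not tested. The data come from 1 library, so the spread between cultures is unknown. No paired analysis was possible because the ATF4 list has 1 library and no second group.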

Other observations

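Among the 145 promoter sites in the strongest 10% of the list, 7 adjacent pairs lay within 300 kb, 1 of them the pair of TRIB3 sites, and the pairs named here were chosen after their values were seen. On chromosome 12, SHMT2, NDUFA4L2, MARS1 and the shared MBD6 and DDIT3 site followed each other at 9989, 247901 and 32748 bp, with folds of 68.7, 26.3, 56.4 and 46.8. On the same chromosome the transporter genes SLC38A1 and SLC38A2 had sites of fold 44.2 each, 103222 bp apart. On chromosome 22, ADM2 (27.8) and KLHDC7B (50.7) were 63846 bp apart.

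Promoter sites with at least 2 exact CAREs outside the gene lists, also named after their values were seen, lay at IGF2R (fold 39.4), the receptor that sorts lysosomal enzymes, where the copies were 21 bp apart, and at BTF3L4 (36.8), where they were 13 bp apart. At TUBGCP3 (26.4) the copies were 102 bp apart. CDC42BPA (10.1) and PCGF6 (3.88) also had 2 copies and were not in the strongest 10% of the list.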
